A study of Homo sapiens with 12 samples.

Results

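The 29 genes described here encode enzymes and regulators of cholesterol and fatty acid synthesis. They were taken by gene symbol from a list, and each symbol matched 1 row of the 58051 rows of the gene count table. The list holds 6 enzymes of the mevalonate steps, 3 of the squalene and lanosterol steps, 8 of the steps after lanosterol, 3 regulators (SREBF1, SREBF2 and INSIG1), the sterol carrier gene STARD4 with the acetyl-CoA acetyltransferase gene ACAT2, and 7 fatty acid synthesis and desaturation genes. The RNA came from MDA-MB-231, an established human triple-negative breast cancer cell line, in 12 libraries of 4 groups with 3 libraries each. siControl cells received a non-targeting siRNA pool, siNELFA cells a pool against NELFA (the A subunit of the negative elongation factor, which holds RNA polymerase II shortly after it starts transcribing), siYAP cells a pool against YAP1 (the transcriptional co-activator of the Hippo pathway), and siNELFA+siYAP cells both pools. Each pool was used at 50 to 100 nM with a lipid transfection reagent and the sequenced RNA was taken 72 h after transfection, while the labels name harvests at both 48 h and 72 h. Knockdown by siRNA is transient and partial, so every knockdown group still held some of the targeted RNA.

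Cells make cholesterol from acetyl-CoA by way of mevalonate, squalene and lanosterol, and make fatty acids from the same precursor by carboxylation, chain building and desaturation. When sterols in the endoplasmic reticulum run low, the membrane-bound factors SREBP-1 and SREBP-2, the products of SREBF1 and SREBF2, are carried to the Golgi and cut, and the released part enters the nucleus and activates most of the genes listed above. INSIG1 protein holds the SREBPs in the endoplasmic reticulum and is itself an SREBP target, so its RNA is widely read as a sensor of the pathway. Breast cancer cells commonly run both routes to build membrane.

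Libraries held 9608145 to 18803104 assigned counts, and each gene of the list had between 52 and 10078 counts in every library, so all 29 passed the filter on low counts in every comparison. Together the 29 genes took 0.256% to 0.353% of the counts. The targeted genes followed the labels. NELFA was at 22.2 to 33.8 CPM (counts scaled to a common library size with edgeR's TMM factors) without siNELFA and at 6.35 to 9.96 CPM with it, and YAP1 was at 247 to 302 CPM without siYAP and 37.7 to 46.2 CPM with it. Markers of the line were present as a sum in every library: 6 genes that include VIM, CD44 and AXL summed to 4457 to 6549 CPM. The sum was lowest in replicate 1 within siControl, siNELFA and siYAP (4474, 5070 and 4457 CPM), and it does not give the level of each gene. Adipocyte and hepatocyte markers, from other lipid-making cell types, summed to at most 3.61 CPM over 6 genes.

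Replicate 1 of siControl, siNELFA and siYAP stood apart from replicates 2 and 3 in the lipid genes, and this bears on every comparison that follows. SCD, the desaturase that makes oleate, was at 635, 195 and 205 CPM in siControl, 790.4, 222 and 167 CPM in siNELFA and 769.6, 226 and 233 CPM in siYAP (replicates 1, 2 and 3 in this order, here and below), and at 204, 224 and 219.7 CPM in siNELFA+siYAP. In the first 3 groups the replicate 1 library was the high one, and in the double knockdown the libraries lay close together. FASN, the fatty acid synthase, went the other way in siControl, with 110.3, 299 and 293 CPM, against 364, 364 and 307 CPM in siNELFA, 256, 294 and 278 CPM in siYAP and 325, 322 and 306 CPM in siNELFA+siYAP. Replicate 1 differed by more than 1.5-fold from the mean of replicates 2 and 3 for 12 of the 29 genes in siControl (8 higher and 4 lower), for 10 in siNELFA (all 10 higher), for 9 in siYAP (7 higher and 2 lower) and for 0 in siNELFA+siYAP. Over all 18525 genes tested, the same held for 42.9%, 37.3%, 40.4% and 8.59% in these groups, so the lipid genes moved at about the rate of all genes. INSIG1, MSMO1, HSD17B7, ELOVL6 and SCD were more than 1.5-fold higher in replicate 1 of all 3 groups. The epithelial gene CDH1, normally silent in this line, moved with them: it was at 16.3 to 47.0 CPM in replicate 1 of the 3 groups and at most 0.936 CPM elsewhere. Its list of 7 genes expected to be low in this line summed to 162 to 201 CPM in those libraries and 74.3 to 119 CPM in the other 9. The list therefore held other genes that were expressed in every library, and its sum does not give the level of each gene. In bulk RNA, fewer cells of a kind and less RNA per cell cannot be told apart, and the part of this difference in the results below was not tested beyond leaving those libraries out.

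**Figure D1:**
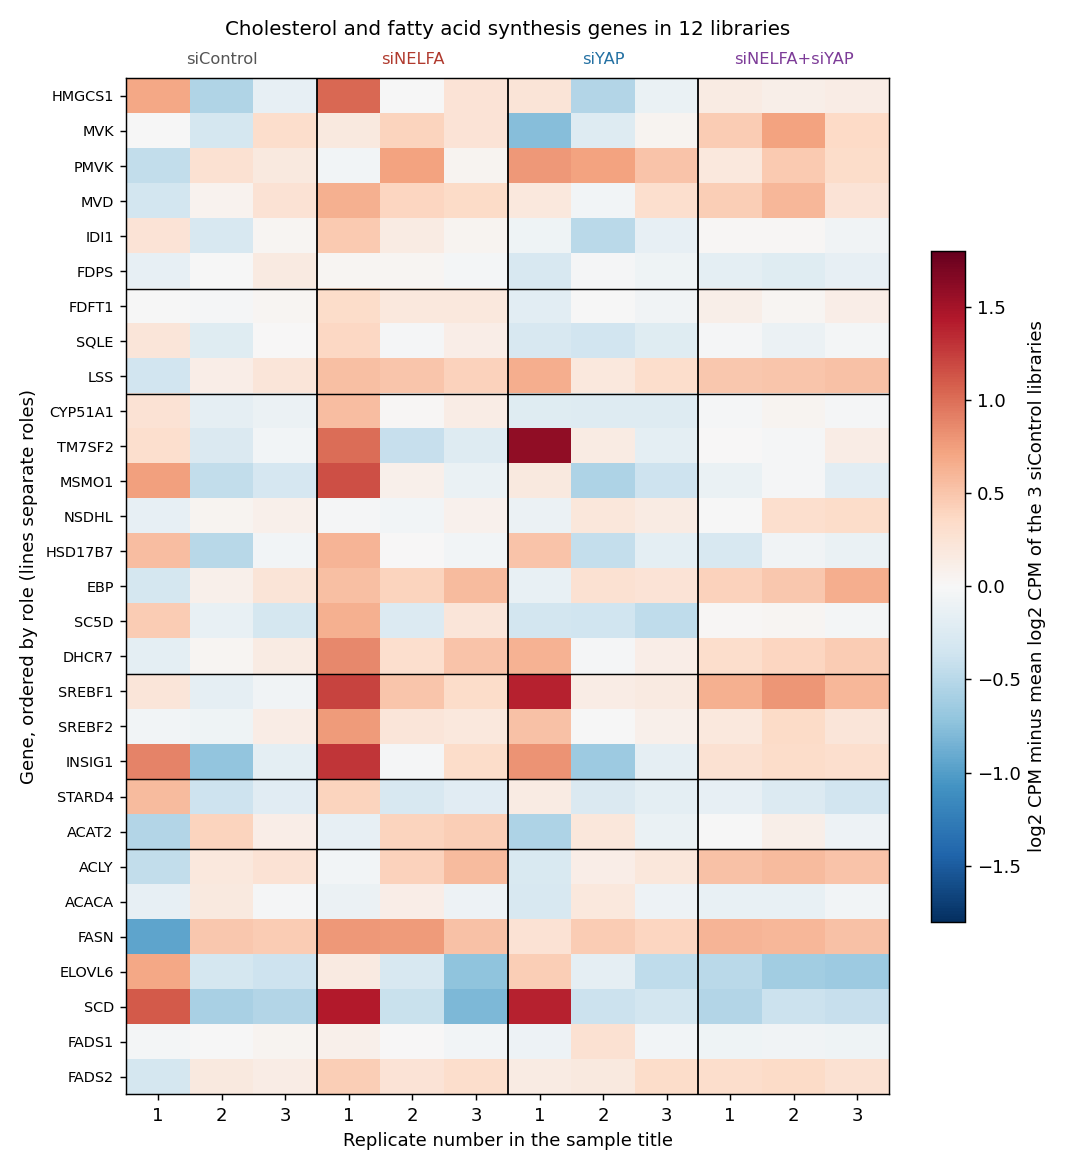
Colour gives the log2 CPM of each of the 29 genes (vertical axis, ordered by role) in each of the 12 libraries (horizontal axis, replicate number within group) minus the mean log2 CPM of the 3 siControl libraries. SCD, INSIG1, HMGCS1 and MSMO1 are high in replicate 1 of siControl and siNELFA, and the 3 siNELFA+siYAP libraries resemble each other.

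Same-numbered libraries of the first 3 groups, called the paired groups below, deviated alike. Deviations of same-numbered libraries from their group means correlated at 0.642 to 0.886 among siControl, siNELFA and siYAP, and at -0.0524 to 0.0255 with siNELFA+siYAP. The 3 deviations of a group cancel out, so a replicate 1 shift shared by the groups also makes replicates 2 and 3 correlate. Whether replicates 2 and 3 were paired between groups cannot be told from these values, and siNELFA+siYAP showed little of that shift. Comparisons among the first 3 groups are therefore given in 2 fits, one plain and one that holds the replicate number as a block, a term that removes what same-numbered libraries share. The double knockdown libraries carry names of another form (N1_1, N1_2 and N1_3 in place of N1, N2 and N3), their replicates 1 and 3 differed less than any other pair of libraries within a group (chi-square per degree of freedom 2.78, against 11.3 to 115 for the other pairs), and whether they came from separate cultures or were made with the other groups cannot be told from those names, so group and preparation cannot be told apart there, and p-values against this group may measure technical spread on its side.

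Levels can be compared between genes on the TPM scale, which corrects for library size and transcript length. In siControl the mean TPM ran from 5.80 ± 2.15 (SD, n = 3) for TM7SF2, a sterol C14 reductase, to 128 ± 14.6 for FDPS, which makes farnesyl diphosphate, the branch point to sterols and prenyl groups. ACLY, which makes cytosolic acetyl-CoA from citrate, followed at 102 ± 22.8 TPM and SCD at 84.8 ± 63.6 TPM, so that mean ± SD overlapped among these 3 genes. Within each siControl library FDPS was above ACLY (111, 138 and 135 against 76.9, 121 and 109 TPM). SQLE, the oxygenase that forms squalene epoxide, was among the lower genes at 12.4 ± 2.32 TPM, and HMGCS1, the synthase that supplies HMG-CoA, was at 29.03 ± 12.7 TPM. SREBF2, the regulator chiefly of sterol genes, was at 56.4 ± 10.1 TPM and SREBF1, the regulator chiefly of fatty acid genes, at 34.3 ± 15.2 TPM, which also overlapped. Within each siControl library SREBF2 was above SREBF1 (65.8, 45.7 and 57.5 against 51.8, 24.3 and 26.9 TPM). Reads of 5 members can be shared with another gene on the same strand, among them TM7SF2 with VPS51, FADS1 and FADS2 lie against each other on opposite strands, and 5 members (IDI1, FDPS, CYP51A1, HSD17B7 and SCD) have annotated pseudogene copies elsewhere in the genome. The counting options were not given in the sources used here, so those levels are less certain.

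The 4 promoters shown belong to the 3 regulators and to HMGCS1, a classical SREBP target, because their RNA carries the comparisons below. The bases come from RefSeq windows of build GRCh38.p14, cut to the part upstream of every annotated transcript, and are written 5′ to 3′ on the strand of the gene. Capitals mark matches, on either strand, to the sterol regulatory element core TCACNCCAC, to CCAAT (the letters bound by NF-Y) and to GGGCGG (the letters bound by Sp1), the factors with which SREBPs are known to act. SREBF2 lies on chromosome 22 (41832855 to 41833104, plus strand), SREBF1 on chromosome 17 (17837003 to 17837236, minus strand), INSIG1 on chromosome 7 (155297628 to 155297775, plus strand) and HMGCS1 on chromosome 5 (43313513 to 43313662, minus strand).
SREBF2: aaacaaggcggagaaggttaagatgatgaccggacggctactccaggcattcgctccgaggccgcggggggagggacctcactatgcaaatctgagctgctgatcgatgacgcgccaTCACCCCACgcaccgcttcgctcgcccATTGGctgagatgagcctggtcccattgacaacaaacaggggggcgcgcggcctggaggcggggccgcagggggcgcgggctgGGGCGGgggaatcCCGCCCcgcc
SREBF1: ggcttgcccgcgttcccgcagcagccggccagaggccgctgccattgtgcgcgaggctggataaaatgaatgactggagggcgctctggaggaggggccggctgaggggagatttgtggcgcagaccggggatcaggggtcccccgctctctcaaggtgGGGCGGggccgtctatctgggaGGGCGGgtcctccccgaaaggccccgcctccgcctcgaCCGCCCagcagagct
INSIG1: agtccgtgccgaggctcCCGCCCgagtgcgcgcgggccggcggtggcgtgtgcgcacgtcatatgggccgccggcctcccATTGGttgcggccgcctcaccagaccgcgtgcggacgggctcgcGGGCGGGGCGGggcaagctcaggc
HMGCS1: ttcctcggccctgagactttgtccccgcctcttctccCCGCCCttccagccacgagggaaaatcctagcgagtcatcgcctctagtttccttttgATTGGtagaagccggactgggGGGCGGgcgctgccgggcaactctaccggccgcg

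SREBF2 held the 1 match to TCACNCCAC, which began 133 bases before its start, with a CCAAT match on the other strand 106 bases before it. INSIG1 and HMGCS1 each held 1 CCAAT match, on the minus strand of the gene in both, 170 and 155 bases before the RefSeq start of the uncut window. That start lies downstream of the end of the printed stretches of these genes, which were cut to 148 and 150 bases. SREBF1 held 3 matches to GGGCGG and none to the other letters in this stretch. Windows from 250 bases before to 50 bases after a start were in the reference table for 25 of the 29 genes; those of FDFT1, SQLE, ACAT2 and FASN were not searched here. TCACNCCAC occurred in 1 of the 25 genes and in 1.39% of all 27305 genes with a window, CCAAT in 20 of the 25 and in 39.7% of all genes, and GGGCGG in 24 of the 25 and in 48.3% of all genes. That background was not limited to genes expressed in these cells, while all 25 were expressed, so these shares do not show a trait of lipid genes. Matches to the different letters did not have to be apart, and a match is a description of the letters.

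In siNELFA against siControl, which asks what loss of the elongation factor subunit did to these genes, 25 of the 29 lay above 0 and 4 below (NSDHL, STARD4, ACACA and ELOVL6). Their median log2 fold change was 0.25, against 0.00 over all 17727 genes tested. It was 0.07 without siNELFA replicate 1, 0.30 without siControl replicate 1 and 0.20 without replicate 1 of both groups. None of the 29 passed an adjusted p of 0.05 in edgeR's quasi-likelihood test without the block, where 0.00564% of all genes passed. The siRNA target NELFA did not pass in that test either (log2 fold change -1.63, adjusted p = 0.381). With the block NELFA passed (adjusted p = 0.000385). At an unadjusted p under 0.05 without the block, 4 of the 29 were higher (LSS, EBP, DHCR7 and SREBF1) and 0 lower, against 2.25% and 2.21% of all genes. DESeq2 and limma on log2(TPM + 1) also called 0 of the 29. With the replicate block, 3 passed, all higher: SREBF1, INSIG1 and DHCR7, which is 10.3% of the list, where 2.76% of all genes passed as higher and 2.45% as lower, while limma on log2(TPM + 1) with the same block called 0.

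SREBF1 (ENSG00000072310, chromosome 17, 17810399 to 17837002 in GRCh38, minus strand) had the largest of these changes. Its CPM was 44.0, 33.9 and 36.1 in siControl and 87.5, 53.6 and 47.7 in siNELFA, so every siNELFA library lay above every siControl library. The log2 fold change was 0.68 ± 0.14 (SE, n = 3 per group, adjusted p = 0.0129 with the block, 1.00 without), and the ratios within replicates 1, 2 and 3 were 1.99, 1.58 and 1.32. INSIG1 (ENSG00000186480, chromosome 7, 155297776 to 155310235, plus strand), at 122, 40.4 and 58.6 CPM in siControl and 162, 65.2 and 83.4 CPM in siNELFA, overlapped between groups because replicate 1 was high in both, while its ratios within replicates were near each other at 1.33, 1.62 and 1.42. It rose by 0.54 ± 0.11 on the log2 scale (adjusted p = 0.0155 with the block), and without replicate 2 it lost the call (adjusted p = 0.16). DHCR7 (ENSG00000172893, chromosome 11, 71428193 to 71452868, minus strand), the reductase that completes cholesterol, was at 54.0, 62.3 and 67.3 CPM in siControl and 111, 75.2 and 87.2 CPM in siNELFA, again without overlap. It rose by 0.56 ± 0.14 (adjusted p = 0.0409 with the block), and its ratio was 2.06 within replicate 1 and 1.21 and 1.30 within replicates 2 and 3.

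**Figure D2:**
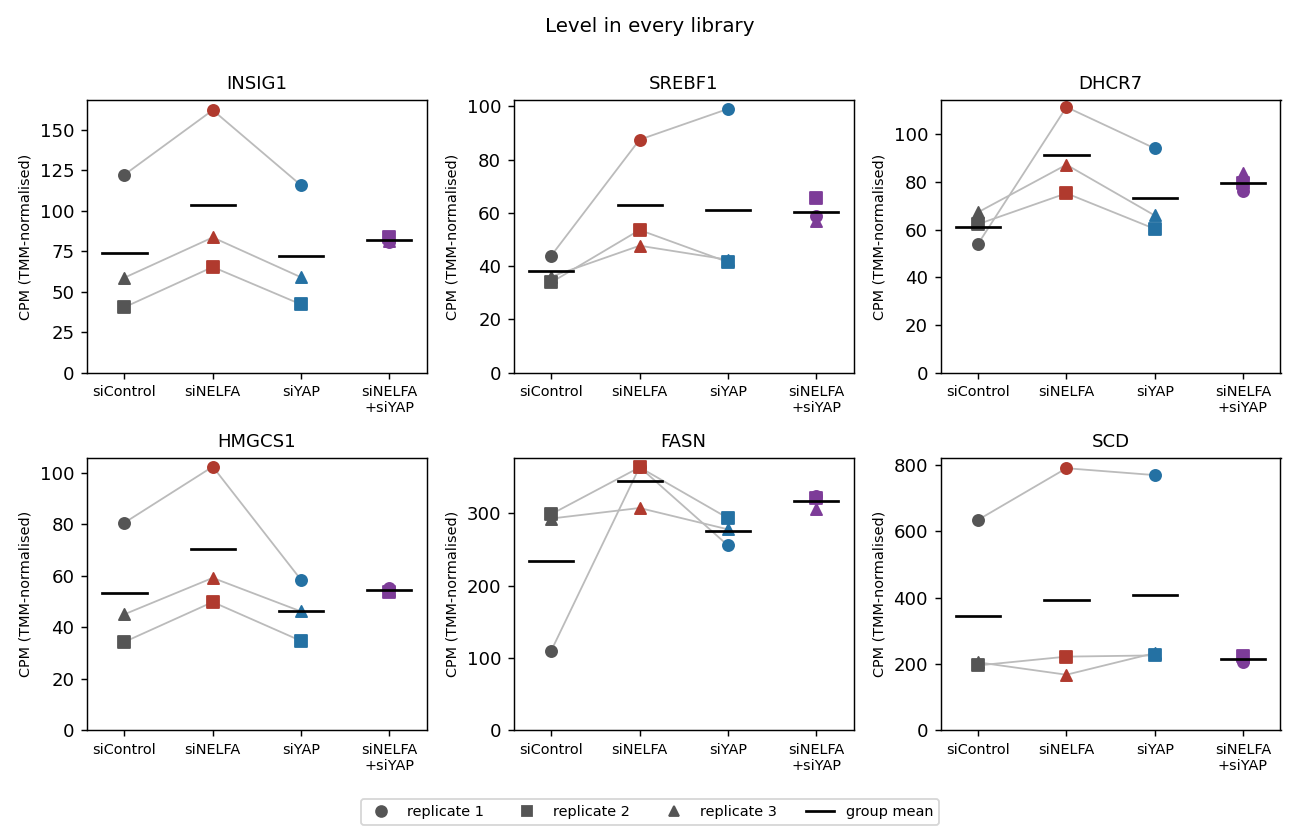
TMM-normalised CPM (vertical axis, from 0) of 6 genes in the 4 groups; each point is a library, its shape gives the replicate number, grey lines join equal numbers in the 3 paired groups and the black bar is the group mean. For INSIG1 each line goes up from siControl to siNELFA, with ratios of 1.33, 1.62 and 1.42, although replicate 1 is high in both groups.

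SREBF2, the partner regulator, did not pass the test with the block (log2 fold change 0.39 ± 0.13, adjusted p = 0.104), yet its groups did not overlap, at 132, 130.4 and 150.0 CPM in siControl and 233, 159 and 156 CPM in siNELFA. Several enzymes lay just outside the threshold of 0.05 with the block: LSS, the lanosterol synthase (0.48 ± 0.13, adjusted p = 0.0501), EBP, the sterol isomerase (0.50 ± 0.14, 0.0513), HMGCS1 (0.43 ± 0.12, 0.0517) and ACLY (0.32 ± 0.09, 0.0544). FASN had a difference of 0.67 ± 0.22 (adjusted p = 0.106), and its ratios were 3.30 within replicate 1, where siControl was low, and 1.22 and 1.05 within the others. SCD differed by 0.07 ± 0.11 (adjusted p = 0.774), with ratios of 1.25, 1.14 and 0.82. The siNELFA libraries were all above all siControl libraries for 9 genes (MVD, FDFT1, LSS, EBP, DHCR7, SREBF1, SREBF2, FASN and FADS2) and all below for 0, while 6.2% and 5.88% of all genes were so. Within replicate numbers, 18 genes were higher in all 3 pairs and 0 lower in all 3, against 22.4% and 21.8% of all genes.

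By role, with the block, none of the 6 mevalonate genes passed (all 6 higher), 0 of the 3 squalene and lanosterol genes (all 3 higher), 1 of the 8 genes after lanosterol (7 higher) and 2 of the 3 regulators (all 3 higher). STARD4 and ACAT2 did not pass, at -0.03 ± 0.12 and 0.23 ± 0.13. Among the 7 fatty acid genes 0 passed, 5 were higher and 2 lower, and ELOVL6, the elongase of palmitate, had the lowest value of the list at -0.28 ± 0.12 (adjusted p = 0.219). Without replicate 1 the block fit called 8 genes higher (SREBF1, INSIG1, DHCR7, HMGCS1, MSMO1, LSS, EBP and ACLY) and 0 lower, where 7.99% of all genes passed as higher and 7.69% as lower. Without replicate 2 it called 3 higher (SREBF1, DHCR7 and FASN) and 0 lower, against 1.86% and 1.7% of all genes. Without replicate 3 it called 6 higher (SREBF1, INSIG1, DHCR7, LSS, SREBF2 and FASN) and 0 lower, against 2.38% and 1.26%, so SREBF1 and DHCR7 passed each time. On the TPM scale the median of all genes was -0.19, and 24 of the 29 lay above it; 18 were above 0 and 11 below.

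siNELFA against siYAP sets the single knockdowns side by side, with the same siNELFA libraries as above, and with the block it held the most calls. Of the 29 genes 23 had their higher mean in siNELFA and 6 in siYAP. The list's median log2 fold change was 0.31, against -0.01 over all 17257 genes. It was 0.13 without siNELFA replicate 1, 0.28 without siYAP replicate 1 and 0.24 without replicate 1 of both groups. Without the block edgeR called 0 of the 29, where 0.0116% of all genes passed, with 5 higher and 0 lower at an unadjusted p under 0.05 (2.69% and 2.94% of all genes); DESeq2 and limma on log2(TPM + 1) called 0. With the block 14 of the 29 (48.3%) passed as higher in siNELFA and 0 as lower, where 8.33% of all genes passed as higher and 7.44% as lower; limma on log2(TPM + 1) with the same block called 0. The 14 were HMGCS1, MVK and IDI1 of the mevalonate steps, FDFT1 and SQLE of the squalene steps, CYP51A1, MSMO1, EBP, SC5D and DHCR7 of the steps after lanosterol, the regulator INSIG1, and ACAT2, ACLY and FASN. Without replicate 1, 10 of these 14 held and SCD passed as lower, where 7.8% of all genes passed as higher and 6.97% as lower. Without replicate 2, 12 held (7.76% and 7.15% of all genes), and without replicate 3, 8 held (3.23% and 2.68%). Genes that check the cell line moved in the same fit: 4 of its 6 markers (CD44, CAV1, VIM and AXL) passed as higher in siNELFA, with log2 differences of 0.23 to 0.42, and so did CDH1, whose counts lay mostly in replicate 1 (1.69 ± 0.32, adjusted p = 0.0007). Their part in the result was not tested.

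MSMO1, the methylsterol oxidase, had the largest difference, 0.65 ± 0.11 on the log2 scale (adjusted p = 0.000291 with the block). It was at 138, 65.3 and 56.4 CPM in siNELFA and 69.0, 41.5 and 47.2 CPM in siYAP, and at 103, 45.1 and 49.8 CPM in siControl, so siControl lay between the single knockdowns in each replicate number. SC5D, the sterol desaturase, differed by 0.60 ± 0.13 (adjusted p = 0.00258), at 59.7, 32.3 and 44.7 CPM in siNELFA, 30.3, 29.8 and 28.0 CPM in siYAP and 52.4, 34.9 and 30.6 CPM in siControl. Its siYAP libraries were below all siNELFA and all siControl libraries. HMGCS1 differed by 0.57 ± 0.10 (adjusted p = 0.000477), at 102, 49.8 and 59.2 CPM in siNELFA, 58.4, 34.7 and 46.1 CPM in siYAP and 80.6, 34.3 and 45.0 CPM in siControl, with ratios of siNELFA to siYAP of 1.75, 1.44 and 1.28.

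INSIG1 differed by 0.55 ± 0.09 (adjusted p = 0.000173), the smallest adjusted p of the list, with ratios of 1.40, 1.55 and 1.42. Its siYAP libraries, at 116, 42.1 and 58.8 CPM, followed siControl number by number. MVK, the mevalonate kinase, differed by 0.57 ± 0.17 (adjusted p = 0.0257), with 14.0, 16.3 and 14.7 CPM in siNELFA and 7.31, 10.6 and 12.8 CPM in siYAP, and 12.3, 9.96 and 15.4 CPM in siControl. CYP51A1, the lanosterol demethylase, was at 150.1, 104 and 111 CPM in siNELFA against 87.1, 86.7 and 86.7 CPM in siYAP and 122, 91.1 and 94.8 CPM in siControl (0.47 ± 0.10, adjusted p = 0.0016). The siYAP libraries of CYP51A1 were nearly equal, and replicate 1 of siControl and siNELFA was the high one of its group.

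IDI1, the isomerase of isopentenyl diphosphate, was at 62.7, 50.0 and 46.6 CPM in siNELFA, 42.9, 32.3 and 41.1 CPM in siYAP and 53.8, 37.0 and 46.5 CPM in siControl, a difference between the knockdowns of 0.46 ± 0.11. SQLE was at 34.1, 25.9 and 28.6 CPM in siNELFA, 21.4, 20.7 and 22.6 CPM in siYAP and 30.5, 22.5 and 26.3 CPM in siControl, and differed by 0.45 ± 0.13 (adjusted p = 0.0178). For both genes all siNELFA libraries were above all siYAP libraries. FDFT1, the squalene synthase, also had no overlap between the knockdowns and differed by 0.33 ± 0.09, with 130.5, 119 and 119 CPM in siNELFA, 91.0, 103 and 99.3 CPM in siYAP and 104, 102 and 106 CPM in siControl. EBP was at 62.6, 57.0 and 64.1 CPM in siNELFA, 39.1, 51.9 and 51.3 CPM in siYAP and 34.6, 45.8 and 50.4 CPM in siControl (0.38 ± 0.11). ACAT2 was at 39.4, 57.7 and 59.3 CPM in siNELFA, 29.8, 50.5 and 40.1 CPM in siYAP and 30.4, 57.7 and 47.8 CPM in siControl, with the lowest level in replicate 1 of each group (0.39 ± 0.11, adjusted p = 0.0137).

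ACLY was at 335, 463 and 513 CPM in siNELFA, 286, 377 and 398 CPM in siYAP and 253, 392 and 415 CPM in siControl, so that siYAP and siControl overlapped and siNELFA was the higher in each number (0.30 ± 0.08 against siYAP, adjusted p = 0.00811). DHCR7, at 94.1, 60.3 and 65.9 CPM in siYAP, and FASN each differed from siNELFA by 0.33 (SE 0.09 and 0.08). SREBF1 and SREBF2 did not pass here. SREBF1 was at 99.1, 41.5 and 42.4 CPM in siYAP, with its highest library of all in replicate 1, and differed from siNELFA by 0.12 ± 0.11 (adjusted p = 0.504). Within replicate numbers 19 genes were higher in siNELFA in all 3 pairs and 2 lower, against 24.3% and 23.7% of all genes. The 2 lower ones were TM7SF2 (-0.41 ± 0.21, adjusted p = 0.198) and ELOVL6 (-0.22 ± 0.09, adjusted p = 0.0995). The siNELFA libraries were all above the siYAP libraries for 10 of the 29 genes and all below for 0, against 6.42% and 6.19% of all genes. On the TPM scale the median of all genes was -0.12 and 21 of the 29 lay above it.

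**Figure D3:**
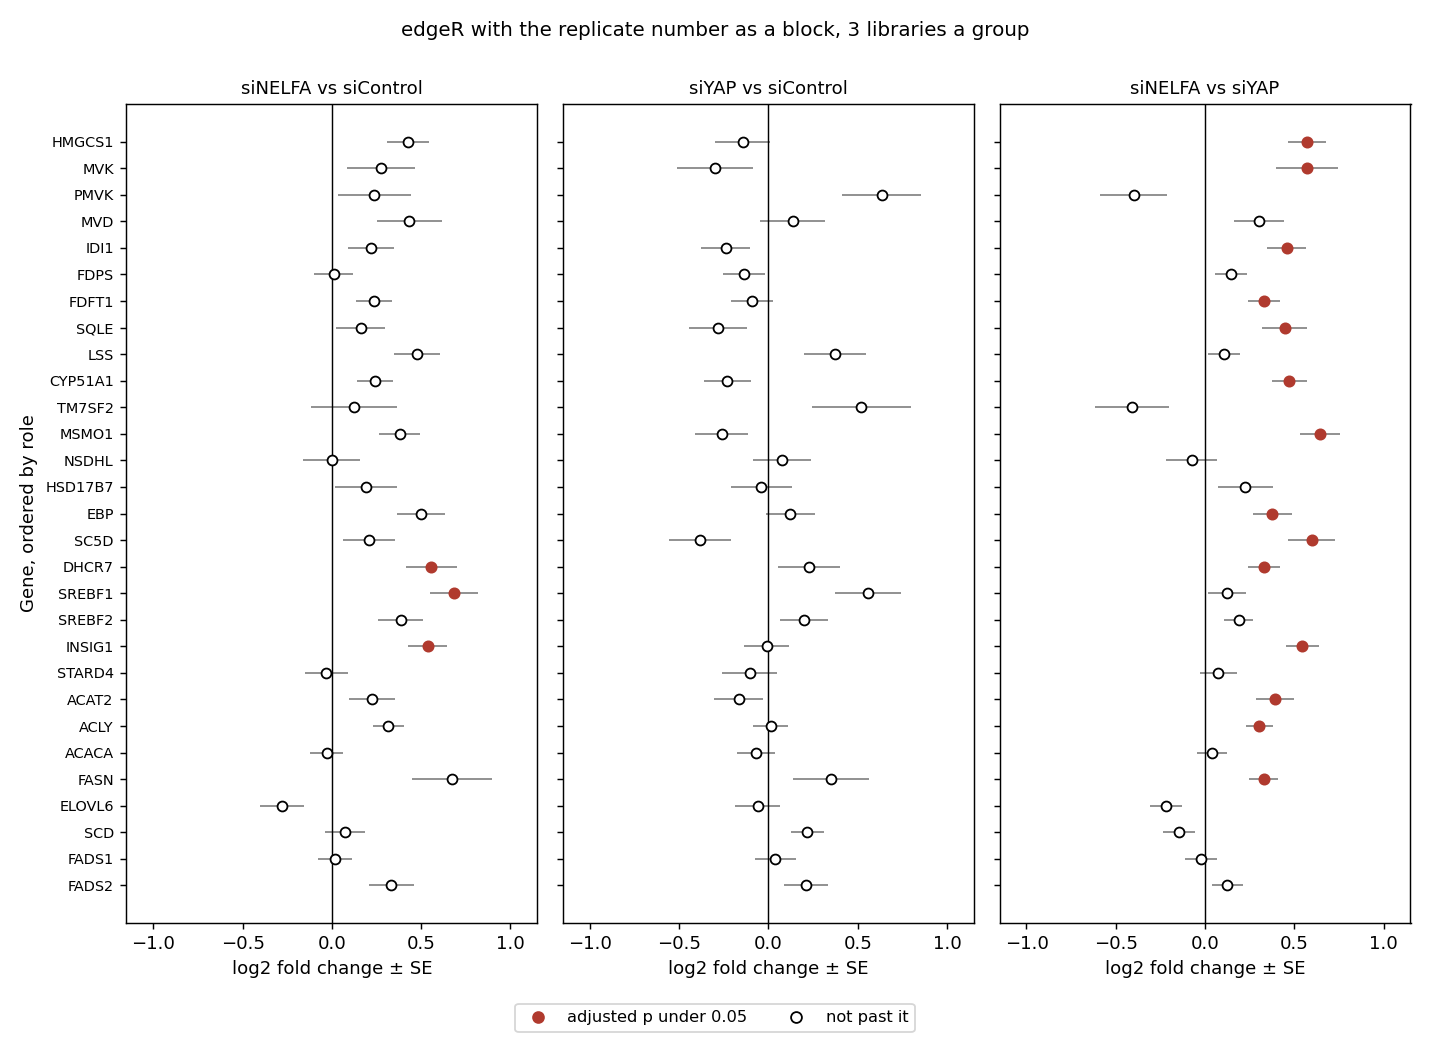
Log2 fold change with its standard error (horizontal axis) of each of the 29 genes (vertical axis, ordered by role) in the 3 comparisons among the paired groups, from the edgeR fit blocked by replicate number, with 3 libraries per group; filled points passed an adjusted p of 0.05. There are 3 filled points for siNELFA against siControl, 0 for siYAP against siControl and 14 for siNELFA against siYAP.

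siYAP against siControl gave no call. Of the 29 genes 13 lay above 0 and 16 below. The median was -0.04 on the log2 scale against 0.00 over all 17296 genes, of which 0.00578% passed without and 0.0173% with the block. edgeR called 0 of the 29 in either fit, DESeq2 0 and limma on log2(TPM + 1) 0. At an unadjusted p under 0.05 without the block, 1 gene was higher (PMVK, the phosphomevalonate kinase) and 0 lower, against 0.752% and 0.549% of all genes; with the block 3 were higher (PMVK, SREBF1 and SCD) and 1 lower (SC5D), against 5.11% and 4% of all genes. PMVK was at 5.63, 9.25 and 8.64 CPM in siControl and 13.2, 12.6 and 10.9 CPM in siYAP, the only gene of the list whose siYAP libraries were all above siControl (4.07% of all genes), and its log2 fold change was 0.63 ± 0.27 (adjusted p = 1.00). CYP51A1 and SC5D were the 2 whose siYAP libraries were all below (3.67% of all genes), at -0.25 ± 0.18 and -0.43 ± 0.25. INSIG1 was at -0.04 ± 0.50 without the block and -0.01 ± 0.12 with it, with ratios of 0.95, 1.04 and 1.00 within replicate numbers. SREBF1 was at 0.56 ± 0.19 with the block (adjusted p = 0.525), with a ratio of 2.25 within replicate 1 and 1.22 and 1.18 within the others.

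In siNELFA+siYAP against siControl 16 of the 29 genes lay above 0 and 13 below, and their median was 0.02 against -0.03 over all 17533 genes. edgeR called 0 of the 29, where 0.428% of all genes passed, and limma on log2(TPM + 1) called 0; DESeq2 called 1 as higher, SREBF1, where it called 1.16% of all genes as higher and 1.75% as lower. At an unadjusted p under 0.05, 5 were higher (LSS, EBP, DHCR7, SREBF1 and ACLY) and 1 lower (ELOVL6), against 8.27% and 10.2% of all genes. On the TPM scale 12 lay above 0 and 17 below, with a median of all genes of -0.13. SREBF1 was at 58.9, 65.5 and 57.1 CPM in the double knockdown, above every siControl library, with a log2 fold change of 0.66 ± 0.15 (adjusted p = 0.094). The double knockdown libraries were all above siControl for 10 genes and all below for 3 (FDPS, ELOVL6 and FADS1), against 15.5% and 14.4% of all genes.

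One control library decided these counts. Without siControl replicate 1, 8 of the 29 genes (27.6%) passed as higher and 2 (6.9%) as lower, where 11.5% and 12.9% of all 18587 genes did. SREBF1 was then at 0.78 ± 0.09, INSIG1 at 0.72 ± 0.12, HMGCS1 at 0.45 ± 0.11, EBP at 0.36 ± 0.09, LSS at 0.32 ± 0.07, ACLY at 0.31 ± 0.05, DHCR7 at 0.30 ± 0.08 and SREBF2 at 0.21 ± 0.07. ELOVL6 fell by 0.25 ± 0.08 and FDPS by 0.26 ± 0.07. INSIG1 shows what the library did: the double knockdown held 80.3, 83.4 and 81.4 CPM, above replicates 2 and 3 of siControl and below its replicate 1, and the fold change with all libraries was 0.14 ± 0.37. HMGCS1 likewise was at 55.4, 53.5 and 54.6 CPM in the double knockdown and had a fold change of 0.02 ± 0.30 with all libraries. Without replicate 1 of both groups, 7 genes were called higher and 1 lower, against 8.36% and 9.57% of all genes.

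**Figure D4:**
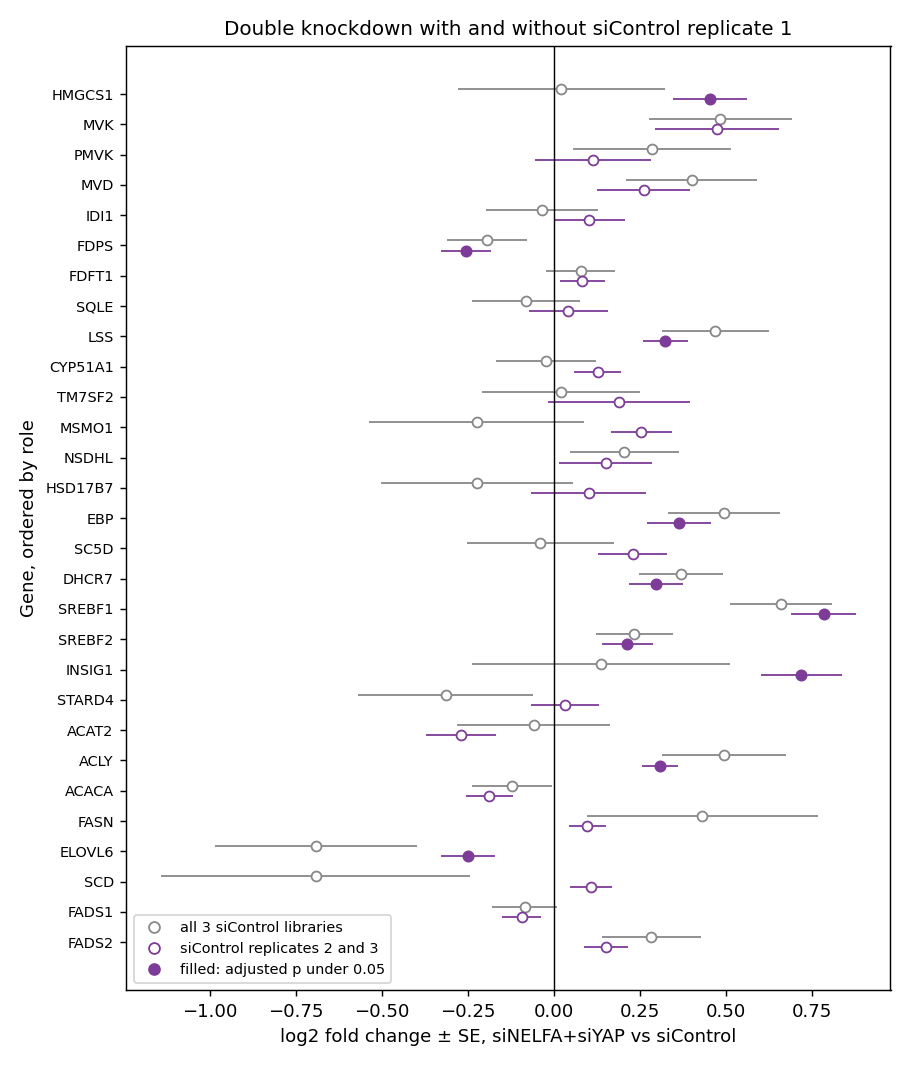
Log2 fold change with its standard error (horizontal axis) of each of the 29 genes (vertical axis, ordered by role) in siNELFA+siYAP against siControl, with all 3 siControl libraries (grey) and with replicates 2 and 3 alone (purple); filled points passed an adjusted p of 0.05 in edgeR. With all libraries 0 points are filled, and without siControl replicate 1 there are 8 on the higher side and 2 on the lower side.

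Against siNELFA, which asks what adding the YAP1 pool did in NELFA-depleted cells, 6 of the 29 genes were higher in siNELFA+siYAP and 23 lower, with a median of -0.19 against -0.01 over all 17463 genes. edgeR called 0 of the 29 (0.00573% of all genes passed), with 0 higher and 0 lower at an unadjusted p under 0.05 (2.69% and 3.93% of all genes); DESeq2 and limma on log2(TPM + 1) called 0. The double knockdown libraries were all below siNELFA for 6 genes (IDI1, FDPS, FDFT1, SQLE, HSD17B7 and FADS1) and all above for 0, where 7.48% and 7.58% of all genes were so. Without siNELFA replicate 1 the median was -0.0042, with 12 genes above 0, 17 below and 0 called (0.481% of all genes passed as higher and 0.766% as lower). SREBF1 differed by -0.06 ± 0.23 and INSIG1 by -0.34 ± 0.31.

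Against siYAP, which asks what adding the NELFA pool did in YAP1-depleted cells, 19 genes were higher in siNELFA+siYAP and 10 lower, with a median of 0.11 against -0.03 over all 17167 genes. edgeR called 0 of the 29 (0.035% of all genes passed); at an unadjusted p under 0.05, 4 were higher (ACLY, MVK, SC5D and EBP) and 1 lower (ELOVL6), against 6.66% and 8.85% of all genes, and DESeq2 and limma on log2(TPM + 1) called 0. MVK was at 17.1, 20.4 and 15.8 CPM in the double knockdown (0.79 ± 0.23, adjusted p = 0.213), SC5D at 38.9, 39.1 and 37.5 CPM (0.39 ± 0.12, 0.215) and ACLY at 499, 512 and 493 CPM (0.50 ± 0.14, 0.197), all above every siYAP library. Without siYAP replicate 1, 10 of the 29 (34.5%) passed as higher (INSIG1 at 0.69 ± 0.12, MVK at 0.60 ± 0.16, SREBF1 at 0.53 ± 0.09, HMGCS1, LSS, CYP51A1, MSMO1, SC5D, DHCR7 and ACLY) and 0 as lower, where 7.96% and 8.56% of all genes did. Without replicate 1 of both groups, 3 passed as higher and 0 as lower, against 3.54% and 4.16% of all genes. The double knockdown libraries were all above siYAP for 8 genes and all below for 3 (PMVK, ELOVL6 and SCD), against 13.6% and 12.9% of all genes.

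The called members not yet given for the double knockdown lay in narrow ranges. CYP51A1 was at 100.4, 105 and 99.8 CPM, MSMO1 at 56.2, 60.3 and 53.9 CPM and SQLE at 25.7, 24.3 and 25.5 CPM. EBP was at 57.5, 60.5 and 67.7 CPM, DHCR7 at 76.0, 79.4 and 83.5 CPM and SREBF2 at 156, 174 and 159 CPM. IDI1 was at 45.9, 46.1 and 43.2 CPM, FDFT1 at 112, 107 and 113 CPM and ACAT2 at 43.5, 47.2 and 41.0 CPM. Over the 29 genes the median absolute log2 difference between replicate 1 and the mean of replicates 2 and 3 was 0.04 in the double knockdown, against 0.48 in siControl, 0.48 in siNELFA and 0.40 in siYAP. Whether the effect of siNELFA differed with siYAP present was tested in edgeR over the 12 libraries. No replicate block was used, since the siNELFA+siYAP libraries did not deviate with same-numbered libraries of the other groups. In that interaction test 0 of the 29 genes and 0 of 18525 genes passed, with 0 and 326 at an unadjusted p under 0.05, and the smallest adjusted p in the list was 1.00. Without replicate 1 of all 4 groups 0 of the 29 and 0 of 19145 genes passed, with 0 and 426 at an unadjusted p under 0.05. These fits do not show that the effects were alike.

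Genes of 6 neighbouring pathway lists (54 genes, of which 53 were tested) were read in the same fits. Without the block edgeR called 0 of the 53 in each of the 6 comparisons, with 1 to 11 at an unadjusted p under 0.05 except for 0 in siYAP against siControl. With the block, siNELFA against siControl had 3 called higher and 0 lower, where 2.76% and 2.45% of all genes were: 2 of the 11 further SREBP targets and sterol uptake genes, among them NPC2, which carries cholesterol out of the lysosome (0.40 ± 0.10, adjusted p = 0.0294), and 1 of 7 genes of LXR and sterol efflux, ABCA1, the exporter of cholesterol (0.43 ± 0.11, adjusted p = 0.0443). ABCA1 was at 400.4, 57.0 and 55.3 CPM in siControl and 442, 88.1 and 79.6 CPM in siNELFA, so its replicate 1 was high as for SCD. siNELFA against siYAP with the block had 9 called higher and 5 lower, where 8.33% and 7.44% of all genes were. The higher ones included NPC1 and NPC2 of lysosomal cholesterol export, MBTPS2, a protease that cuts SREBPs (0.40 ± 0.10 on the log2 scale), ABCA1, the elongation genes ELOVL5 (0.56 ± 0.08) and HSD17B12, ACSL4 and the oxidation enzyme ACADM. The 5 lower ones were LPIN1 (-0.53 ± 0.10), ACACB (-0.66 ± 0.19), ACSL1 (-0.53 ± 0.10), CPT1A (-0.30 ± 0.09), which admits fatty acids to mitochondria, and ETFDH (-0.53 ± 0.14). Of the 9 isoprenoid branch genes 0 passed in edgeR in any comparison, blocked or not, with at most 2 at an unadjusted p under 0.05, and siYAP against siControl had 0 called in each list, with or without the block.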

How the data were processed

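Ribosomal RNA-depleted, stranded libraries (12 in all) of total RNA were sequenced in the study. Per the study's methods and the labels, the authors trimmed reads with cutadapt, aligned them with STAR to GRCh38 (Ensembl 87) and deposited raw read counts per gene from featureCounts. FPKM and TPM were also deposited, and the labels name Cufflinks as a further tool. Tool versions and the counting options are not given in the sources used here. TPM was not the counts divided by a fixed length. In siNELFA replicates 2 and 3, HMGCS1 was at 49.8 and 59.2 CPM but 25.8 and 21.0 TPM. MVK was at 16.3 and 14.7 CPM but 8.38 and 10.3 TPM. The count fits and limma on TPM therefore also differ in quantification, and the part of this in their results was not tested. The deposited FPKM values, which give the TPM values on scaling, were not used.

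Counts were tested with edgeR 4.0.16 (quasi-likelihood F test, TMM factors) in R 4.3.3, on the 2 groups compared, after filterByExpr (minimum count 10, minimum total 15), with Benjamini-Hochberg adjustment over all genes tested and a threshold of 0.05. SE is the log2 fold change divided by the root of F. Alternatives were DESeq2 1.42.0, RLE factors, no filter or a mean of at least 50 counts, a fit over all 12 libraries, a block for the replicate number, each library left out, and limma 3.58.1 on log2(TPM + 1) or log2(TPM + 0.1) with or without a mean TPM of at least 1; block fits with DESeq2, limma, 9 libraries or a number left out, and the interaction tests, were added after seeing the data. The fits were also run on counts simulated for siNELFA against siControl, without or with a replicate shift that was the same in both groups. The double knockdown was not simulated, and the outcome is not reported here. The members, lists and tests were chosen with earlier results of these data known. Named genes were the members by role, with every library's CPM for HMGCS1, SQLE, INSIG1, SREBF1, SREBF2, FASN, SCD and members past the threshold in a comparison or its block fit. Library values of PMVK, CDH1 and ABCA1, outside that rule, were chosen after being seen. Of the pairs within a group, none agreed within sampling noise (chi-square per degree of freedom 2.78 for replicates 1 and 3 of siNELFA+siYAP, 11.3 to 115 for the others). The labels call the libraries replicates, and the study's methods call them independent biological replicates. Gene coordinates and overlaps come from GENCODE 44, and promoters from RefSeq (GRCh38.p14). Some single genes of the pathway lists are not reported here. The depth was 9608145 to 18803104 counts per library.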

Additional observations from a re-analysis of the deposited data

How the results depend on the processing

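With single libraries left out the list's median log2 fold change ran from 0.07 to 0.35 in siNELFA against siControl, -0.06 to 0.04 in siYAP against siControl, -0.03 to 0.15 in siNELFA+siYAP against siControl, -0.22 to -0.0042 in siNELFA+siYAP against siNELFA, 0.06 to 0.21 in siNELFA+siYAP against siYAP and 0.13 to 0.31 in siNELFA against siYAP, so its sign changed in siYAP and in siNELFA+siYAP against siControl. Also changed were the counts of genes past an adjusted p of 0.05, from 0 in edgeR with all libraries and no block. In siNELFA against siControl the replicate block gave 3 higher (7 with DESeq2, 5 over the 9 libraries of the paired groups, 8, 3 and 6 without replicate 1, 2 and 3), and in siNELFA against siYAP it gave 14 higher (11 with DESeq2, 7 over the 9 libraries, 8 to 12 higher and 0 to 1 lower with a number left out); limma on TPM with the block gave 0 in both, and the cause was not tested. The block changed no other call of the 29 genes. In siNELFA+siYAP against siControl, DESeq2 gave 1 higher, leaving out single libraries gave 0 to 8 higher and 0 to 2 lower, and leaving out replicate 1 of both groups gave 7 higher and 1 lower. In siNELFA+siYAP against siYAP it was 0 to 10 higher for single libraries and 3 for replicate 1 of both groups. The block fits other than the planned one were chosen after seeing the data. In siNELFA+siYAP against siControl, HMGCS1 ran from -0.21 to 0.45 over single libraries left out (below 0 without siControl replicate 2 or 3) and turned to -0.23 in limma on log2(TPM + 1) with or without the filter and -0.24 on log2(TPM + 0.1), SREBF2 to -0.23 and -0.24 on those 2 scales, and INSIG1 ran from -0.15 (without siControl replicate 2) to 0.72. In siNELFA+siYAP against siYAP, HMGCS1 turned to -0.0038 and -0.00098 on those scales, and MSMO1 to -0.0095 and -0.0089. Over single libraries left out MSMO1 ran from -0.034 to 0.36, DHCR7 from -0.0081 to 0.34 and INSIG1 from -0.095 to 0.69, each below 0 without siYAP replicate 2. SREBF1, at -0.02 there, turned to 0.017 without the filter on low counts, 0.11 with the replicate block, 0.54 without replicate 1 of both groups, and 0.21 and 0.22 in limma, and ran from -0.23 to 0.53 over single libraries left out (above 0 without siYAP replicate 1 or siNELFA+siYAP replicate 1 or 3). The cause of these reversals was not tested.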
